A study of Caenorhabditis elegans with 6 samples.

Results

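The 8 genes described here mark the intestine of Caenorhabditis elegans and the uptake of food across its inner surface. They are the GATA transcription factor genes elt-2 and elt-7, the gut esterase gene ges-1, the acid phosphatase gene pho-1, the peptide transporter gene pept-1, the sodium-proton exchanger gene nhx-2, the actin gene act-5 and the intermediate filament gene ifb-2. They were matched by symbol. All 8 were found once each among 46926 genes in the count table, and all 8 passed the filter on low counts, which left 17022 genes tested. Whole worms of WT genotype, labelled as the L4 larval stage, were compared on ordinary plates seeded with Escherichia coli OP50 (untreated, 3 libraries) and on plates with 50 µM FUDR (5-fluoro-2′-deoxyuridine, an inhibitor of thymidylate synthesis that blocks DNA replication, 3 libraries). RNA was poly(A)-selected and sequenced. The labels give neither the start of the exposure nor whether each library had its own culture. The p-values then rest on the spread between the libraries, part of which may be technical.

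The worm intestine is a tube of large epithelial cells that digests bacteria, takes up nutrients and stores fat. ELT-2 binds GATA sites in most intestinal genes and holds the tissue's identity after the embryo, and ELT-7 acts alongside it. GES-1 and PHO-1 are digestive enzymes whose genes are classical targets of ELT-2. PEPT-1 carries di- and tripeptides together with protons across the apical membrane, and NHX-2 at the same membrane exports protons in exchange for sodium and so keeps that uptake running. ACT-5 is the actin of the microvilli, and IFB-2 belongs to the intermediate filament sheath that lies beneath them.

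Gene counts summed to between 61312034 and 99234226 per library, and the members had between 290 and 94834 counts in a library. Levels are given in CPM, a gene's counts set to a common library size, with TMM scaling factors. Over the whole experiment 41% of tested genes were called, meaning an edgeR adjusted p under 0.05, with 20% higher and 21% lower in FUDR. Log2 CPM of FUDR replicates 1 and 3 correlated least within a group, at 0.984, against 0.988 for the lowest pair of OP50 libraries. In FUDR, 7 of the 8 members were highest in replicate 1 and lowest in replicate 3, and pho-1 was the other way round. In OP50, 6 members were highest in replicate 3. Leaving out FUDR replicate 1 changed no call among the members, and turned the sign of 3 that were not called.

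The intestinal genes did not move together. In FUDR 3 of the 8 were lower (pho-1, pept-1 and nhx-2), 2 were higher (elt-2 and ifb-2) and 3 were not called (elt-7, ges-1 and act-5). Since 41% of all genes were called, a count of 5 in 8 says little about these genes as a set. OP50 and FUDR levels had no overlap for the 5 called members, against 54.7% of all tested genes. The median log2 fold change of the members was 0.04, beside 0.05 for all tested genes. In whole worms, fewer cells of a type and less RNA per cell cannot be told apart.

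**Figure D1:**
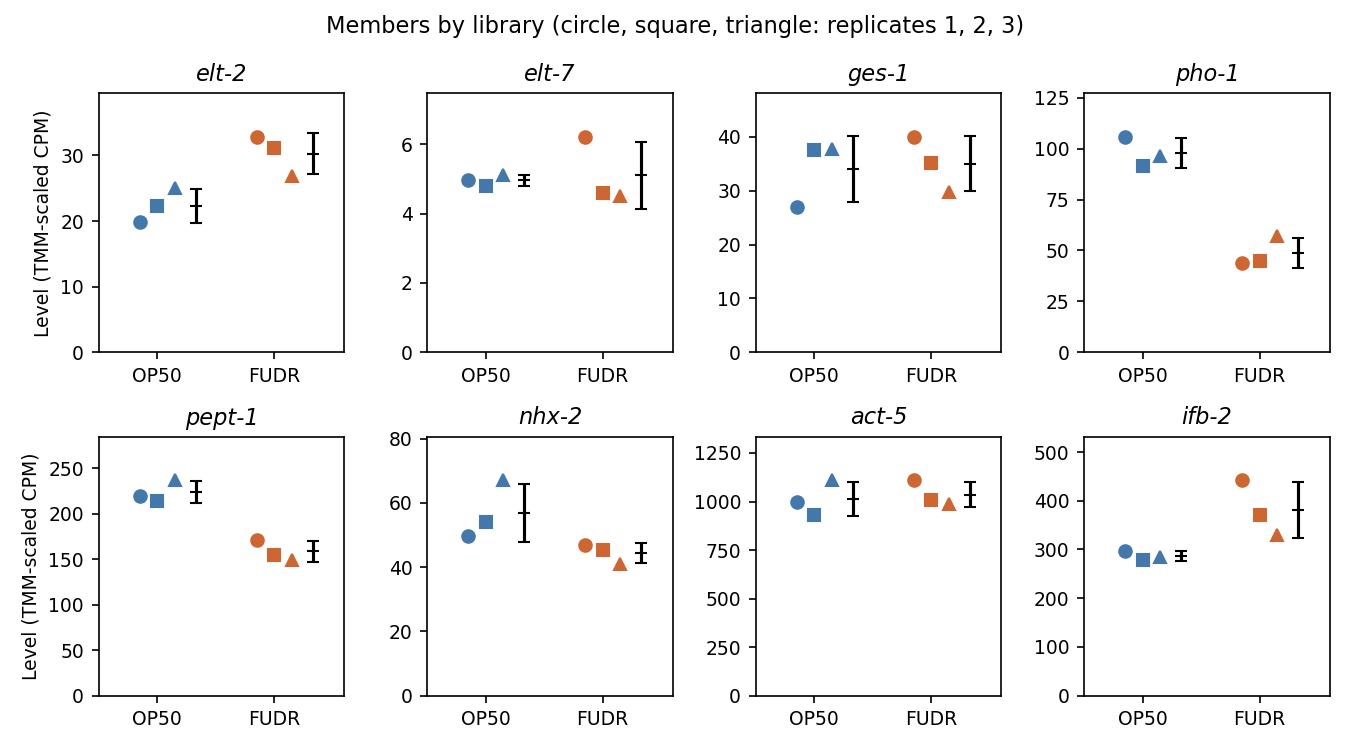
Level of each of the 8 genes in TMM-scaled CPM, by library; circles, squares and triangles are replicates 1, 2 and 3, and the bar beside each group is its mean with the SD over 3 libraries. The FUDR libraries lie wholly below the OP50 libraries for pho-1, pept-1 and nhx-2 and wholly above them for elt-2 and ifb-2.

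The transcription factor gene elt-2 (WBGene00001250, WBcel235 chromosome X, 10481240 to 10483441, plus strand) had 19.8, 22.2 and 24.97 CPM in OP50 replicates 1, 2 and 3 and 32.9, 31.2 and 26.8 CPM in FUDR replicates 1, 2 and 3. The groups came close but did not overlap, since the highest OP50 library lay just under the lowest FUDR library. The mean level rose from 22.3 ± 2.59 to 30.3 ± 3.11 CPM (SD, n = 3), which is 0.44 ± 0.116 as a log2 fold change with its SE (edgeR adjusted p = 0.0153). This call ended when OP50 replicate 1 (0.36, edgeR adjusted p = 0.0513), OP50 replicate 2 (0.43, 0.056) or FUDR replicate 2 (0.42, 0.0579) was left out.

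The elt-7 gene (WBGene00015981, chromosome V, 4770670 to 4773086, plus strand), the weaker partner of elt-2, was the least expressed member. It had 4.97, 4.79 and 5.11 CPM in OP50 and 6.22, 4.58 and 4.52 CPM in FUDR. The tight OP50 values lay inside the FUDR range, in which replicate 1 alone was above them. Its log2 fold change was 0.04 (95% interval −0.31 to 0.39, edgeR adjusted p = 0.864), and without FUDR replicate 1 it was −0.13 (adjusted p = 0.491). The ratio of elt-2 to elt-7 counts within a library does not depend on scaling. On the log2 scale it was 1.99, 2.21 and 2.29 in OP50 and 2.40, 2.77 and 2.57 in FUDR. The balance thus stood further towards elt-2 in each FUDR library, by 0.42 on average (two-sided exact permutation p = 0.1, the smallest that 3 against 3 libraries allow).

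The digestive enzyme genes parted. The pho-1 gene (WBGene00004020, chromosome II, 5233156 to 5235846, minus strand), whose phosphatase acts at the gut lumen, had 106, 91.3 and 96.3 CPM in OP50 and 44.0, 45.0 and 57.0 CPM in FUDR. All FUDR libraries were far below all OP50 libraries. The mean fell from 97.8 ± 7.45 to 48.6 ± 7.21 CPM, to 49.7% of the OP50 level (log2 fold change −1.01 ± 0.116, edgeR adjusted p = 0.000372). It was the largest change among the 8 and lay at percentile 2.16 of log2 fold changes over all tested genes. The call held in each of the 17 alternative settings, between −1.14 and −0.78. The gene overlaps EGAP2.1 on the opposite strand over 120 bases, 7.94% of its exons, and the strand setting of the counting is not given in the sources used here. EGAP2.1 itself was at 5.18 CPM in OP50 and 5.16 CPM in FUDR.

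The esterase gene ges-1 (WBGene00001578, chromosome V, 1427653 to 1432137, minus strand), a widely used marker of gut fate, had 27.1, 37.5 and 37.8 CPM in OP50 and 40.1, 35.2 and 29.8 CPM in FUDR. The groups overlapped over most of their range, with OP50 replicate 1 the lowest of the 6. Its log2 fold change was 0.04 (95% interval −0.31 to 0.38, edgeR adjusted p = 0.863). The sign turned without OP50 replicate 1 (−0.11, adjusted p = 0.54) or FUDR replicate 1 (−0.07, adjusted p = 0.731).

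Both genes of apical peptide uptake were lower. The transporter gene pept-1 (WBGene00003877, chromosome X, 6456872 to 6461767, plus strand) had 220, 214 and 237 CPM in OP50 and 171, 155 and 150 CPM in FUDR. The spread within each group was small beside the gap between them. The mean fell from 224 ± 11.96 to 159 ± 11.4 CPM, to 70.9% of the OP50 level (log2 fold change −0.50 ± 0.0912, edgeR adjusted p = 0.00302). The call held in each of the 17 alternative settings, and its weakest value was −0.27 with no scaling factor (adjusted p = 0.018).

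The exchanger gene nhx-2 (WBGene00003730, chromosome II, 7690711 to 7693957, minus strand) had 49.6, 54.1 and 67.1 CPM in OP50 and 47.0, 45.3 and 40.8 CPM in FUDR. OP50 replicate 3 stood above the rest, and OP50 replicate 1 was close to the highest FUDR library. The mean fell from 56.9 ± 9.07 to 44.4 ± 3.19 CPM (log2 fold change −0.36 ± 0.119, edgeR adjusted p = 0.0384). This call was the least secure of the 5 and was lost in 9 of 17 alternative settings. Among these were leaving out OP50 replicate 2 (−0.40, adjusted p = 0.0682), OP50 replicate 3 (−0.23, 0.135), FUDR replicate 2 (−0.37, 0.0955) or FUDR replicate 3 (−0.31, 0.0733). It was also lost with upper quartile scaling (−0.21, 0.144), with no scaling factor (−0.13, 0.313), with a filter of 5 CPM (−0.25, 0.0946) and with the replicate number as a block (−0.35, 0.0666).

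The genes of the brush border cytoskeleton differed from each other. The actin gene act-5 (WBGene00000067, chromosome III, 13604412 to 13606066, minus strand) was by far the most abundant member, with 997, 932 and 1109 CPM in OP50 and 1110, 1008 and 990 CPM in FUDR. The groups covered nearly the same range. The log2 fold change was 0.03 (95% interval −0.20 to 0.27, edgeR adjusted p = 0.824). With no scaling factor it was called higher (0.26, adjusted p = 0.0367), and it was −0.030 without OP50 replicate 2 (adjusted p = 0.879) and −0.025 without FUDR replicate 1 (adjusted p = 0.869). The worm has other actin genes of closely related sequence, so reads that align to several of them would be missing from its count.

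The filament gene ifb-2 (WBGene00002054, chromosome II, 5750188 to 5754140, plus strand) had 297, 278 and 285 CPM in OP50 and 442, 370 and 330 CPM in FUDR. OP50 libraries were nearly equal, whereas FUDR libraries were all higher and spread more widely. The mean rose from 287 ± 9.37 to 381 ± 56.8 CPM, 1.33-fold (log2 fold change 0.41 ± 0.116, edgeR adjusted p = 0.0211). It ended as a call when OP50 replicate 2 (0.38, adjusted p = 0.0873), OP50 replicate 3 (0.40, 0.0735) or FUDR replicate 2 (0.44, 0.054) was left out.

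**Figure D2:**
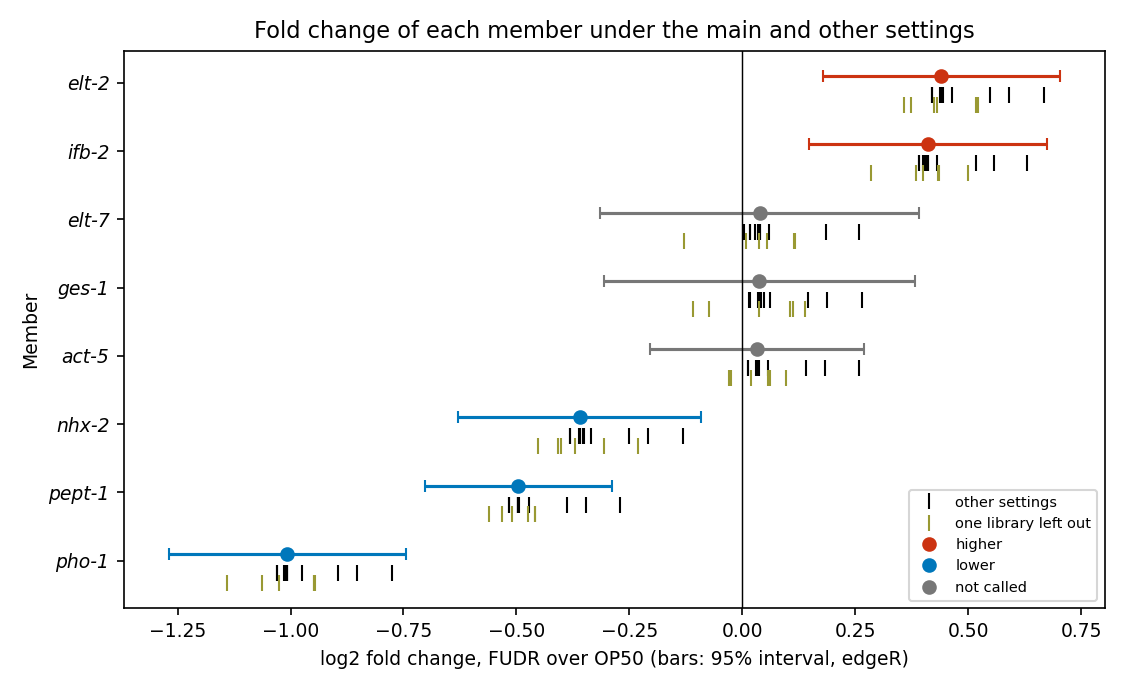
Log2 fold change of each gene, FUDR over OP50, with its 95% interval from the edgeR fit; short black ticks are the other settings of scaling, filter and test, and olive ticks the 6 fits with 1 library left out. All ticks of pho-1 and pept-1 lie below 0 and all ticks of elt-2 and ifb-2 above it, whereas ticks of elt-7, ges-1 and act-5 lie on both sides.

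Scaling by other intestinal genes gave nearly the same values. With factors taken from 40 genes of the terminal web, protease, gut granule and intestine marker lists, the log2 fold changes were −0.97 for pho-1, −0.47 for pept-1, −0.33 for nhx-2, 0.43 for ifb-2 and 0.46 for elt-2. The same 5 members were called. Relative to the median of these 40 genes, 3 members were thus lower in FUDR and 2 higher. The 40 genes include called ones in both directions. With their factors the median log2 fold change over all tested genes was 0.08, against 0.05 with TMM. The 2 scalings are thus nearly the same, and the values add little to the main fit. Whether the amount of gut tissue differed was not tested. The summed level of the 8 members was between 1634 and 1862 CPM in OP50 and between 1628 and 1894 CPM in FUDR, ranges that overlap. Most of this sum was act-5, with means of 1013 CPM in OP50 and 1036 CPM in FUDR, so it says little about the other members.

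Set against the geometric mean of the other 7 members within each library, elt-2 was higher in FUDR by 0.64 and ifb-2 by 0.59 on the log2 scale, and pho-1 was lower by a difference of −1.03, pept-1 of −0.44 and nhx-2 of −0.27. For act-5 the difference was 0.17, though its own log2 fold change was 0.03 and its levels overlapped between the groups. Its ratio thus rests largely on the other members. For these 6 members the FUDR and OP50 ratios did not overlap, and each had a two-sided exact permutation p of 0.1, the smallest possible (0.133 after Benjamini-Hochberg adjustment over the 8). The pept-1 ratio was tight, at 1.79, 1.71 and 1.72 in OP50 and 1.29, 1.304 and 1.32 in FUDR. For elt-7 (0.16, exact p = 0.2) and ges-1 (0.18, exact p = 0.4) the ratios of the groups overlapped. The 8 ratios share their members and are not independent of each other.

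Per kilobase of exon, the level of the 8 genes had the same order in both groups: act-5, ifb-2, pept-1, pho-1, nhx-2, ges-1, elt-2, elt-7. In OP50 act-5 had 797 ± 70.6 CPM per kb, ifb-2 150 ± 4.91, pept-1 80.0 ± 4.28 and pho-1 64.7 ± 4.93. The order went on with nhx-2 at 27.7 ± 4.41, ges-1 at 19.6 ± 3.51, elt-2 at 14.3 ± 1.66 and elt-7 at 5.90 ± 0.189 CPM per kb. Libraries of neighbours overlapped only for ges-1 and elt-2 in OP50. In FUDR pho-1 had 32.2 ± 4.77 CPM per kb, and nhx-2 (21.6 ± 1.55), ges-1 (20.1 ± 2.95) and elt-2 (19.4 ± 2.0) could not be ordered beyond their spread. Among all tested genes the level per kb of act-5 lay at percentile 99.0, that of ifb-2 at percentile 96.1 and that of elt-7 at percentile 45.5.

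Beside ifb-2, the intestinal filament sheath is built from the products of ifc-1, ifc-2, ifd-1, ifd-2 and ifp-1. The makeup of this set differed between the groups. The ifb-2 gene gave 46.4%, 46.3% and 45.4% of the summed level per kb of the 6 genes in OP50 and 52.1%, 51.4% and 51.5% in FUDR. The share of ifc-2 was also higher, at 21.4% ± 0.577 in OP50 and 25.9% ± 0.491 in FUDR. The share of ifc-1 was lower, at 16.4% ± 0.562 and 10.7% ± 0.266, and so was that of ifp-1, at 6.41% ± 0.634 and 3.68% ± 0.244. For each of the 6 genes the shares of the groups did not overlap (two-sided exact permutation p = 0.1, the smallest possible), and the shares of a library add up to 100 and so are tied to each other.

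**Figure D3:**
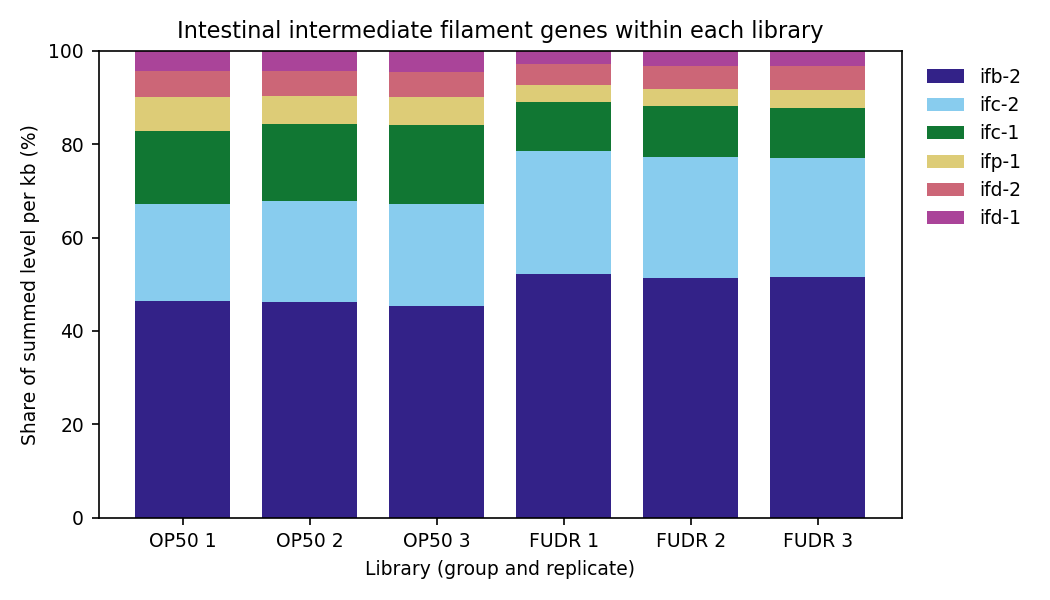
Share of each of 6 intestinal intermediate filament genes in their summed level per kb of exon, in percent, for each library. The ifb-2 and ifc-2 segments are larger in all 3 FUDR libraries, and the ifc-1 and ifp-1 segments smaller.

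In the gene-wise test of the terminal web list, ifc-2 (log2 fold change 0.52, edgeR adjusted p = 0.00926) was called higher, and ifp-1 (−0.57, 0.00412) and ifc-1 (−0.38, 0.0173) lower, among 8 genes tested. Counts called in this list and those below stand beside 20% higher and 21% lower among all tested genes. The filament organizer genes ifo-1, sma-5 and bbln-1 were not called. The ifc-1 call ended when OP50 replicate 3 (adjusted p = 0.0636) or FUDR replicate 2 (0.0582) was left out and with no scaling factor (−0.16, 0.153) or upper quartile scaling (−0.23, 0.0611). The list's median was 0.01. Without FUDR replicate 3 the list held 2 higher genes, the second being ifo-1 (0.27, 0.0283). With no scaling factor 4 were higher and 1 lower, and with upper quartile scaling 2 and 1.

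The pept-1 gene gave a smaller share of its family in FUDR. It made up 75.4% ± 1.05 of the summed level per kb of the 3 peptide transporter genes in OP50 and 68.7% ± 0.814 in FUDR, and the shares of the groups did not overlap (exact permutation p = 0.1, the smallest possible). The relatives pept-2 (log2 fold change −0.10, edgeR adjusted p = 0.416) and pept-3 (0.11, 0.354) were not called, though pept-3 was higher with no scaling factor (0.34, 0.0327). The list of other peptide, amino acid and myo-inositol transporters held 16 tested genes. Of these, 6 were lower and 2 higher, against 21% and 20% of all tested genes, and the list's median was −0.15. The list was led by the myo-inositol transporter gene hmit-1.2 (−1.04, 0.0013) and the amino acid transporter genes aat-1 (−0.62, 0.0022), aat-9 (−0.50, 0.0033) and aat-4 (−0.55, 0.00349). The list is not restricted to the intestine, and whether its changes lay there was not tested. Neither of the 2 higher genes, aat-5 and atgp-1, was called in any edgeR fit that left out 1 library other than FUDR replicate 3. With no scaling factor 3 genes were lower and 4 higher, and aat-4 was not called (adjusted p = 0.0646).

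The nhx-2 gene had the highest level per kb among 9 exchanger genes in both groups, and its share was 34.2% ± 1.98 in OP50 and 28.2% ± 1.61 in FUDR. The list of other exchangers also held vha-6, the gene of an apical intestinal proton pump subunit. Of its 9 genes 3 were higher and 1 was lower, against 20% and 21% of all tested genes. The higher genes were nhx-3 (log2 fold change 0.56, edgeR adjusted p = 0.00799), pbo-4 (0.45, 0.0339) and nhx-6. PBO-4 releases protons from the rear of the intestine onto muscle during defecation. The pbo-4 call ended on leaving out OP50 replicate 1 (adjusted p = 0.0916), OP50 replicate 2 (0.103), FUDR replicate 1 (0.0812) or FUDR replicate 2 (0.0741). The nhx-6 gene had only 2, 1 and 5 counts in OP50 and 14, 54 and 19 in FUDR. The nhx-4 gene, of a basolateral exchanger, was lower (−0.61, 0.00931), and vha-6 was not called (−0.15, 0.34). Without FUDR replicate 3 the list held 2 lower genes.

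Defecation empties the gut in a regular rhythm and depends on calcium waves in intestinal cells. Of 20 tested defecation genes, with a median of 0.03, 4 were higher and 2 lower, against 20% and 21% of all tested genes. The gene of the intestinal timing peptide, nlp-40, rose from 130 ± 2.89 to 210 ± 27.8 CPM (log2 fold change 0.70, edgeR adjusted p = 0.00132). The calcineurin B-like gene pbo-1 (0.46, 0.00606) and the proton-gated channel gene pbo-5 (0.50, 0.0134) were also higher, and the potassium channel gene kqt-3 was lower (−0.45, 0.0179). The pbo-5 call ended on leaving out OP50 replicate 2 (adjusted p = 0.0609) or FUDR replicate 2 (0.0562), and the kqt-3 call without OP50 replicate 3 (0.063), with upper quartile scaling (0.0626) and with no scaling factor (0.167). Leaving out OP50 replicate 2 or FUDR replicate 2 left 2 higher and 1 lower, and 0 were lower by edgeR without OP50 replicate 3 or with either of those scalings. The number higher was 7 with upper quartile scaling and 9 with no scaling factor.

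Within its family, pho-1 was second in level per kb to pho-11, with 14.3% ± 1.54 of the summed level of 12 genes in OP50 and 8.10% ± 0.621 in FUDR. Of the 11 other pho genes tested 3 were higher and 2 lower, against 20% and 21% of all tested genes. The lower ones were pho-13 (log2 fold change −1.03, edgeR adjusted p = 0.000194) and pho-5 (−0.30, 0.0206), and pho-8 (1.05, 0.000674) and pho-4 (0.60, 0.00622) led the higher ones. The pho-5 call ended on leaving out any OP50 library (adjusted p of 0.0567, 0.0512 and 0.0671 for replicates 1, 2 and 3). It also ended with upper quartile scaling (−0.15, 0.14), with no scaling factor (−0.08, 0.506) and with a filter of 5 CPM (−0.19, 0.063). In the list, 5 genes were lower without FUDR replicate 3. The abundant pho-11 was not called (−0.12, 0.405), but was lower without FUDR replicate 3 (−0.23, 0.0446).

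Other digestive genes of the gut also went both ways. Of 16 tested cathepsin and aspartyl protease genes 5 were higher and 3 lower, with a median of 0.12. Among them were cpr-3 (1.17, edgeR adjusted p = 0.000359), asp-12 (1.46, 0.00277) and asp-8 (0.70, 0.000826), which were higher, and the cathepsin B-like gene cpr-6 (−0.62, 0.00257), which was lower. Leaving out OP50 replicate 3 or FUDR replicate 2 gave 3 higher, and using no scaling factor gave 8. Gut granules are lysosome-related stores of fat and zinc. Of 10 tested genes in the list drawn up for them 5 were lower and 0 higher by edgeR, with a median of −0.40. Among the lower ones were the transporter genes haf-4 (−0.91, 0.000516) and haf-9 (−0.57, 0.00276). The adaptor genes apb-3 (−0.46, 0.00164) and apb-1 (−0.72, 0.00207) were lower too, and apb-1 is not particular to gut granules. Whether these changes lay in the gut was not tested. At an unadjusted p under 0.05 the list had 1 higher and 6 lower, and DESeq2 and limma-voom also called 0 higher. With upper quartile scaling, with no scaling factor or without FUDR replicate 1, 1 gene was called higher.

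Among transcription factor genes of the endoderm, pqm-1 rose from 13.1 ± 0.846 to 30.5 ± 4.80 CPM (log2 fold change 1.22, edgeR adjusted p = 0.000262). The short GATA factor gene elt-4, a short relative that lies beside elt-2 on the X chromosome, rose from 0.398 ± 0.129 to 1.33 ± 0.254 CPM (1.75, 0.00235), with 29, 33 and 25 counts in OP50 and 89, 96 and 136 in FUDR. These were 2 of 4 tested genes of this list, and 0 were lower by edgeR, by DESeq2 or at an unadjusted p under 0.05. The embryonic factor gene end-3 was near the detection limit, at 0.13 and 0.119 CPM, and med-1, med-2 and end-1 did not pass the count filter.

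The list of apical polarity and junction genes was lower, with 10 of 15 called lower and a median of −0.43. By edgeR, by DESeq2 and at an unadjusted p under 0.05, 0 were higher, and without FUDR replicate 3 or with no scaling factor 1 was. It was led by the polarity kinase gene pkc-3 (−0.70, edgeR adjusted p = 0.000544), the beta-catenin gene hmp-2 (−0.68, 0.000565), par-3 (−0.77, 0.00233) and eat-20 (−0.90, 0.0024). These genes act in many epithelia, and several of them also in the germ line and early embryo. Germ line markers moved the same way, with 11 of 12 lower and a summed level of 5869 to 6107 CPM in OP50 and 2722 to 3585 CPM in FUDR, and their part in the result was not tested.

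**Figure D4:**
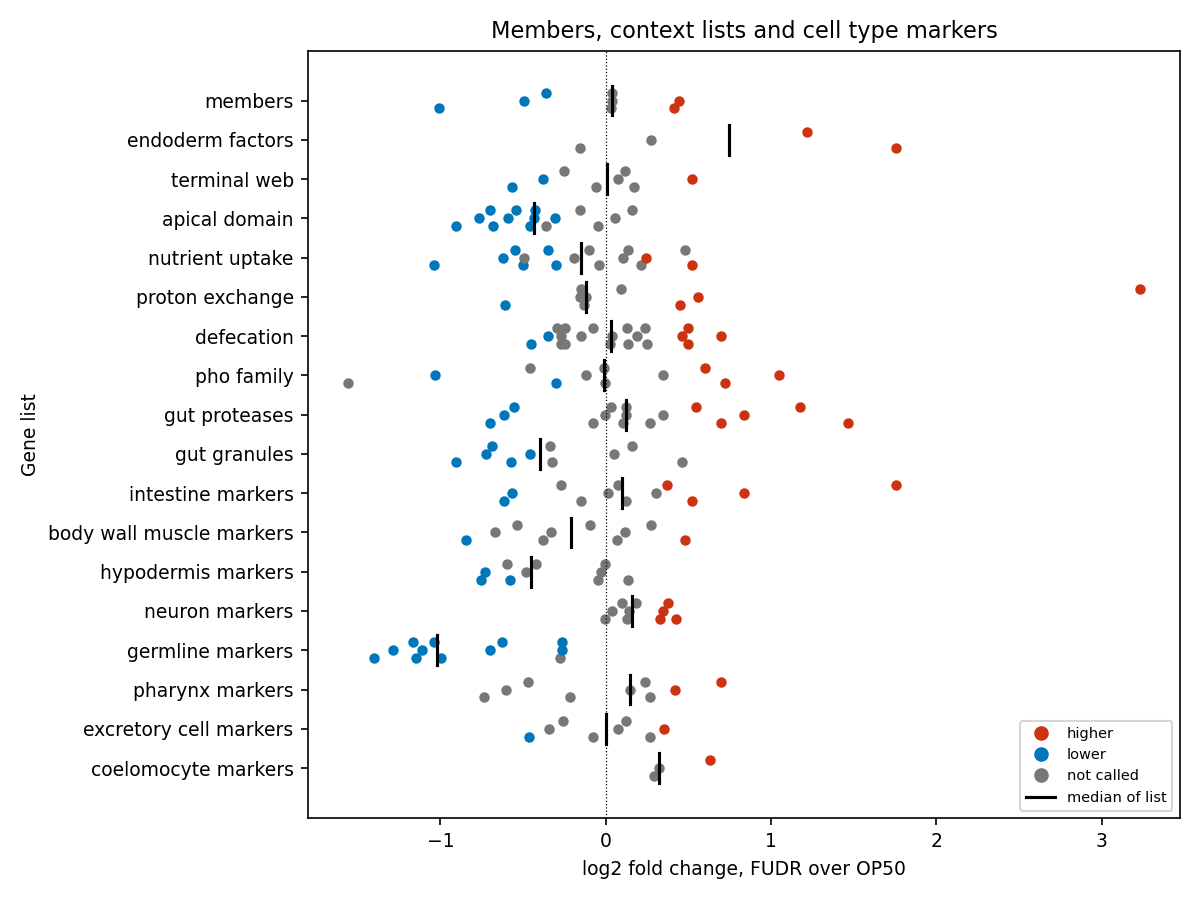
Log2 fold change, FUDR over OP50, of each tested gene in the 8 members, the context lists and the cell type markers; colour gives the edgeR call and the black line the median of a list. The members spread on both sides of 0, and the germline marker list lies furthest to the left.

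The median of the intestine markers, 0.10, lay near that of all tested genes, 0.05, while single markers went both ways. Of 12 such genes 4 were higher and 2 lower, against 20% and 21% of all tested genes. They ranged from cpr-6 (−0.62) to elt-4 (1.75). Apart from spl-1, mtl-2 and ftn-1, these markers are also in the lists above and are not a separate set. Their summed level was 5803 to 6492 CPM in OP50 and 5668 to 7956 CPM in FUDR. The aspartyl protease gene asp-1, with 4140 ± 208 and 4513 ± 894 CPM, and cpr-6 were the most abundant. The number higher was 2 without OP50 replicate 1. Of the other cell types, the excretory cell also uses act-5. Its 8 markers gave 1 higher and 1 lower, with exc-4 at −0.46 (edgeR adjusted p = 0.00502) and aqp-8 at −0.34 (0.0918), and the higher one, sulp-4, was lost with any 1 library left out. Without FUDR replicate 1, 2 were lower, and with no scaling factor exc-4 was not called (adjusted p = 0.0563). Summed levels of its markers were 194 to 228 CPM in OP50 and 172 to 185 CPM in FUDR.

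The remaining marker lists show which other tissues the whole-worm libraries hold. Counts called in them stand beside 20% higher and 21% lower among all tested genes. Of 10 body wall muscle markers 1 was higher, pat-10 (0.48, edgeR adjusted p = 0.0134), and 1 lower, unc-52 (−0.84, 0.00873). The 2 most abundant, unc-54 at −0.53 (0.213) and lev-11 at −0.09 (0.54), were not called. Without FUDR replicate 1, 5 muscle markers were lower, among them unc-54 (−0.97, 0.0141). Over FUDR replicates 1, 2 and 3, unc-54 fell (5721, 3577 and 1996 CPM) while pat-10 rose (1465, 1647 and 1921 CPM). Of 10 hypodermis markers 3 were lower, with sqt-3 at −0.75 (0.00116) and bli-1 at −0.42 (0.121), and their summed level was 541 to 666 CPM in OP50 and 391 to 432 CPM in FUDR. Of 10 neuron markers 4 were higher, unc-64 (0.33, 0.0151), rab-3 (0.38, 0.0168), snt-1 (0.35, 0.0217) and ric-4 (0.43, 0.0313). The 2 most abundant, snb-1 at 0.13 (0.223) and egl-3 at 0.10 (0.641), were not called. Leaving out OP50 replicate 2 gave 0 higher neuron markers by edgeR, OP50 replicate 3 gave 2 and FUDR replicate 2 gave 2. Of 9 pharynx markers 2 were higher, tnc-2 (0.69, 0.0016) and tni-4 (0.42, 0.0105), and the list's median was 0.15. The 2 most abundant, myo-2 at −0.47 (0.392) and myo-1 at −0.21 (0.66), were not called. Over FUDR replicates 1, 2 and 3, myo-2 fell (419, 258 and 110 CPM) while tnc-2 rose (41.8, 43.0 and 48.5 CPM). Markers of 1 tissue thus ran in opposite directions over the FUDR libraries. Whether such runs follow transcript length was not tested. The count of higher pharynx markers was 1 without OP50 replicate 2 or 3. Without FUDR replicate 1, 1 pharynx marker, phat-1, was lower. Of 3 coelomocyte markers cup-4 was higher (0.63, 0.0111) and lgc-26 was not called (0.29, 0.0704), and 2 were higher without FUDR replicate 3. In the germ line list gld-1 was lower (−1.04, 0.000825) and glh-1 was not called (−0.28, 0.0734), though it was lower without FUDR replicate 1 (−0.38, 0.0162), by DESeq2 (0.0343) and with the intestinal scaling (0.0423). The part of these tissues in the members' values was not tested.

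For each member, the gene with the most similar pattern was taken from 8515 other genes whose levels averaged 10 CPM or more, by Pearson's r of log2 CPM over the 6 libraries. With only 6 points that share their depth and group, such values describe these libraries alone. For pho-1 it was the fatty acid elongase gene elo-2 (r = 0.999), which went from 331 to 99.96 CPM (log2 fold change −1.73, edgeR adjusted p = 0.00032). For pept-1 it was K04C2.2 (r = 0.997, log2 fold change −0.34, edgeR adjusted p = 0.0106) and for ifb-2 unk-1 (r = 0.993, 0.78, 0.00573). For nhx-2 it was the hexokinase gene hxk-2 (r = 0.994, −0.17, 0.148) and for elt-2 C18B2.4 (r = 0.997, 0.20, 0.0863). Unlike nhx-2 and elt-2, hxk-2 and C18B2.4 were not called and changed less. For the members that were not called it was the proteasome subunit gene pas-6 for ges-1 (r = 0.993), T14G11.1 for elt-7 (r = 0.98) and the potassium channel gene twk-18 for act-5 (r = 0.964).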

How the data were processed

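The authors deposited 1 table of raw counts of reads per gene for the 6 libraries. Per the submitters' processing notes, STAR and HTSeq were used with the build WBcel235. Their versions, the annotation release and any strand setting are not stated there. The 5 HTSeq summary rows, between 4.55% and 5.33% of all rows' counts, were left out. Symbols came from the supplied name table, positions and exon lengths from the Ensembl release 115 annotation of WBcel235.

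All 17022 genes passing filterByExpr (minimum count 10, minimum total 15) were fitted with edgeR 4.0.16 in R 4.3.3, using TMM factors and the robust quasi-likelihood test, adjusted over all of them (Benjamini-Hochberg, threshold 0.05). The SE is the log2 fold change divided by the square root of F. A floor of 3 counts is at most 0.0496 CPM and covers counting error only. Alternatives included DESeq2 1.42.0 and limma-voom (limma 3.58.1).

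The members and lists were chosen with earlier results of these data known, and shares within families after their values were seen. All members are named, with up to 4 called genes of smallest p per context list, the 2 most abundant per marker list and the most similar gene per member. Called markers of muscle, neurons and pharynx, and genes named to account for small counts or as family relatives, were chosen after their values were seen. Symbols fgt-1, pho-2, pho-3, asp-10, apt-6 and apt-7 had no match in the name table.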

Additional observations from a re-analysis of the deposited data

How the results depend on the processing

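The counts of called members were 2 higher and 3 lower. With 1 library left out they ranged from 0 to 2 higher and from 2 to 3 lower. A test against a 1.2-fold change gave 0 members higher (elt-2 adjusted p = 0.0876, ifb-2 adjusted p = 0.122) and 2 lower, without nhx-2 (adjusted p = 0.208), and over all genes 2148 higher and 2148 lower, against 3397 and 3582 by edgeR. With library size only, 5814 genes were higher and 1931 lower (75.1% of calls higher, against 48.7% with TMM), and with upper quartile scaling 66.6% were higher. The median log2 fold change over tested genes was 0.28 with library size only and 0.20 with upper quartile scaling, against 0.05, and values of the members moved by about the same. Directions over all genes are therefore relative to TMM scaling. The 5 called members kept their sign in all 17 alternative settings, though the size of their changes depended on the scaling. Among members that were not called, the sign turned when some libraries were left out. With 1 library left out, log2 fold changes ranged from −0.13 (without FUDR replicate 1) to 0.12 for elt-7 and from −0.11 (without OP50 replicate 1, and −0.07 without FUDR replicate 1) to 0.14 for ges-1. They ranged from −0.030 (without OP50 replicate 2, and −0.025 without FUDR replicate 1) to 0.097 for act-5. The replicate number as a block left 2 members higher and 2 lower, since nhx-2 was not called (adjusted p = 0.0666). Deviations of libraries with the same number correlated at 0.0551, −0.0166 and 0.0576, which gives no sign of pairing by number. With 3 libraries per group such values cannot exclude pairing. Adding 1 count, or leaving out 1 library, moved no within-library ratio by more than the spread between replicates. The elt-7 gene did not pass the 5 CPM filter and has no value there. Causes of these changes were not tested.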
